A study of Mus musculus with 8 samples.

Results

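A set of 10 genes of the glucocorticoid response was examined in CD4+ CD8+ (double-positive) thymocytes of 2 mouse strains. It holds the glucocorticoid receptor, Nr3c1, and 9 genes known as its targets: Tsc22d3, Fkbp5, Per1, Zbtb16, Klf9, Btg1, Txnip, Ddit4 and Sgk1. Their identifiers were found through GENCODE M21 symbols among the 53465 genes counted in each library, and all 10 were among the 17291 genes with enough reads to be tested. NOD/ShiLtJ (NOD) is an inbred strain that develops autoimmune diabetes without treatment, and C57BL/6J is the strain of the mouse reference genome. Thymi of both strains were dissociated, and live cells positive for both CD4 and CD8a were sorted by flow cytometry and used for total RNA libraries. No genotype other than the strain and no treatment was given, and the sources used here do not give age or sex. There were 4 libraries per strain, and those with the same B number in their titles were summed, which left 2 samples per strain (samples 1 and 2). Nothing in the labels states that a B number stands for an animal. The errors and p-values thus rest only on how far these samples lie apart, for each gene and for others of like abundance. That spread may be technical.

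Glucocorticoids are steroid hormones of the adrenal cortex that enter cells and bind a receptor held in the cytosol by the chaperone HSP90. The bound receptor moves to the nucleus, switches genes on through palindromic response elements, and damps inflammatory genes through other factors. Double-positive thymocytes are the stage of T cell development known to be most sensitive to them, and they die readily when exposed.

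NOD libraries held 23532823 to 30370599 reads in genes, against 8526640 to 15701948 in C57BL/6J libraries. Transcripts of the Y chromosome (Ddx3y, Eif2s3y, Uty and Kdm5d) were present in all 8 libraries, at 25.4 to 64.5 CPM (counts per 1000000 of the scaled library total) in NOD and 34.8 to 111 CPM in C57BL/6J, while Xist was at most 0.562 CPM in NOD and 0.457 CPM in C57BL/6J. The 10 markers of the double-positive stage summed to 13724 to 16287 CPM in NOD libraries and 17594 to 21127 CPM in C57BL/6J libraries, and none of them passed the test. Of these 10, 6 had positive and 4 negative fold changes (median log2 fold change 0.05). Their libraries did not overlap for 5, with NOD above for 1 and below for 4, against 17.0%, 8.20% and 8.84% of all tested genes. An unadjusted p under 0.05 in edgeR was reached by 4 of the 10, against 13.1% of all tested genes. Among markers of other cells, the 7 of B cells summed to 248 to 377 CPM in NOD and 338 to 411 CPM in C57BL/6J, although 5 of the 7 averaged under 1 CPM and 4 of the 7 had positive fold changes (median log2 fold change 0.69). The 7 myeloid markers summed to 64.5 to 81.8 CPM in NOD and 41.0 to 55.6 CPM in C57BL/6J, and 1 of them, Csf1r, was higher in NOD (edgeR adjusted p = 0.0233). The 6 double-negative markers summed to 1747 to 2086 CPM in NOD and 1615 to 2064 CPM in C57BL/6J, and 1 of them, Cd44, was higher in NOD (edgeR adjusted p = 0.0474). Both genes were named after their values were seen, and edgeR called 1.91% of all tested genes higher in NOD. The 5 erythroid markers summed to 1.54 to 13.3 CPM in NOD and 1.13 to 6.08 CPM in C57BL/6J, and the 7 stromal markers to 129 to 146 CPM in NOD and 137 to 168 CPM in C57BL/6J, with positive fold changes for 3 of the 4 stromal markers tested (median log2 fold change 0.55). The 8 proliferation markers split the NOD samples, with 544 to 786 CPM in sample 1, 3710 to 3769 CPM in sample 2 and 2480 to 3746 CPM in C57BL/6J libraries. In RNA from sorted bulk cells, fewer cells of a type and less RNA per cell cannot be told apart. Reads of both strains were aligned to the GRCm38 build, made from C57BL/6J, and the part of NOD sequence variants in the counts was not tested.

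The start regions of the targets were read from the RefSeq promoter table (build GRCm38.p6), which gives 250 bases before and 50 bases after each annotated start. Among the windows searched, 16 belonged to 8 of the 10 genes, and none to Nr3c1 or Zbtb16. This does not show that the table lacks windows for Nr3c1 or Zbtb16. Shares of all windows refer to the windows searched, which need not cover the whole genome. The full response element of the receptor, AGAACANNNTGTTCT (the same on both strands), stood in 3 of the 32851 windows searched (0.00913%), and 1 of these 3 belonged to Sgk1. Its letters were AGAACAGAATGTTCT, on chromosome 10 from 21993701 to 21993715, 189 bases before 1 of the 6 annotated Sgk1 starts and 965 bases before the next start. The single 6-base site AGAACA, or TGTTCT on the other strand, which also makes up each arm of the full element, stood in 19% of all windows and in 4 of the 16, of Tsc22d3 and Sgk1. The E-box CACGTG, the site of the clock factors CLOCK and BMAL1 and the same on both strands, stood in 7.15% of all windows and in 3 of the 16, of Fkbp5, Per1 and Sgk1. The CCAAT box (CCAAT or ATTGG) was found in 37.4% of all windows and in 9 of the 16, of 7 of the 8 genes. The TATA box (TATAAA or TTTATA) was found in 13.6% of all windows and in 3 of the 16, of Btg1 and Sgk1. The cAMP response element TGACGTCA was found in 1.79% of all windows and in none of the 16. A match describes these letters and is not a measured binding site. Printed are the Sgk1 window with the full element, the Tsc22d3 window with the 6-base site and the Per1 window with the E-box, to show where these letters lie. The other Sgk1 windows with a 6-base site and the Fkbp5 window with an E-box are not shown. They run 5′ to 3′ on the gene's strand, and capitals mark the full element, the 6-base site on either strand and the E-box, which shares letters with a 6-base site near the left end of the Sgk1 window.
Sgk1, chr10:21993640-21993939, plus strand: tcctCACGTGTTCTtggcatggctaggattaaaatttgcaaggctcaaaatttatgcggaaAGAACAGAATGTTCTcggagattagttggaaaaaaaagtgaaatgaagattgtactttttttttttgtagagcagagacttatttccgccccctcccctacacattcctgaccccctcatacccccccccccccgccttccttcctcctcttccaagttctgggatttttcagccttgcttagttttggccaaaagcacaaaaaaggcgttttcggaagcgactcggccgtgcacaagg
Tsc22d3, chrX:140600473-140600772, minus strand: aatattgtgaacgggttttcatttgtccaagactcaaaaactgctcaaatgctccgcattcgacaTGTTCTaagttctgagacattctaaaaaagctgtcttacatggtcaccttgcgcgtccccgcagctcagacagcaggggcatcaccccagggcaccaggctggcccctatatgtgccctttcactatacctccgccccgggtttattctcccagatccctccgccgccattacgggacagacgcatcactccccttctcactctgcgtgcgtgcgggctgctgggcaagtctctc
Per1, chr11:69098699-69098998, plus strand: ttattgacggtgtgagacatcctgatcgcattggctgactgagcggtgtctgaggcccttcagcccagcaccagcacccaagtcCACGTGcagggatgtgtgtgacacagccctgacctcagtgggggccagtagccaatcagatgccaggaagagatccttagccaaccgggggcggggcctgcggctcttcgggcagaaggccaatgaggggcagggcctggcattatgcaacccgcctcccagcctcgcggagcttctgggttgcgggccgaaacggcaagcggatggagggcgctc

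None of the 10 genes passed the test between the strains. The count was 0 at an adjusted p of 0.05 in edgeR's quasi-likelihood test, 0 at an unadjusted p under 0.05 and 0 with DESeq2. Of all tested genes, edgeR called 637, or 3.68% (1.91% higher and 1.78% lower in NOD), 13.1% had an unadjusted p under 0.05, and DESeq2 called 5.42%. Fold changes are given as log2(NOD/C57BL/6J) ± the standard error (SE), and 7 of the 10 were positive and 3 negative. Their median was 0.14, against 0.02 for all tested genes. The NOD libraries did not overlap the C57BL/6J libraries for 2 of the 10, Nr3c1 and Per1, and lay above them in both. Of all tested genes, 17.0% had libraries that did not overlap, with NOD above in 8.20% and below in 8.84%.

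**Figure D1:**
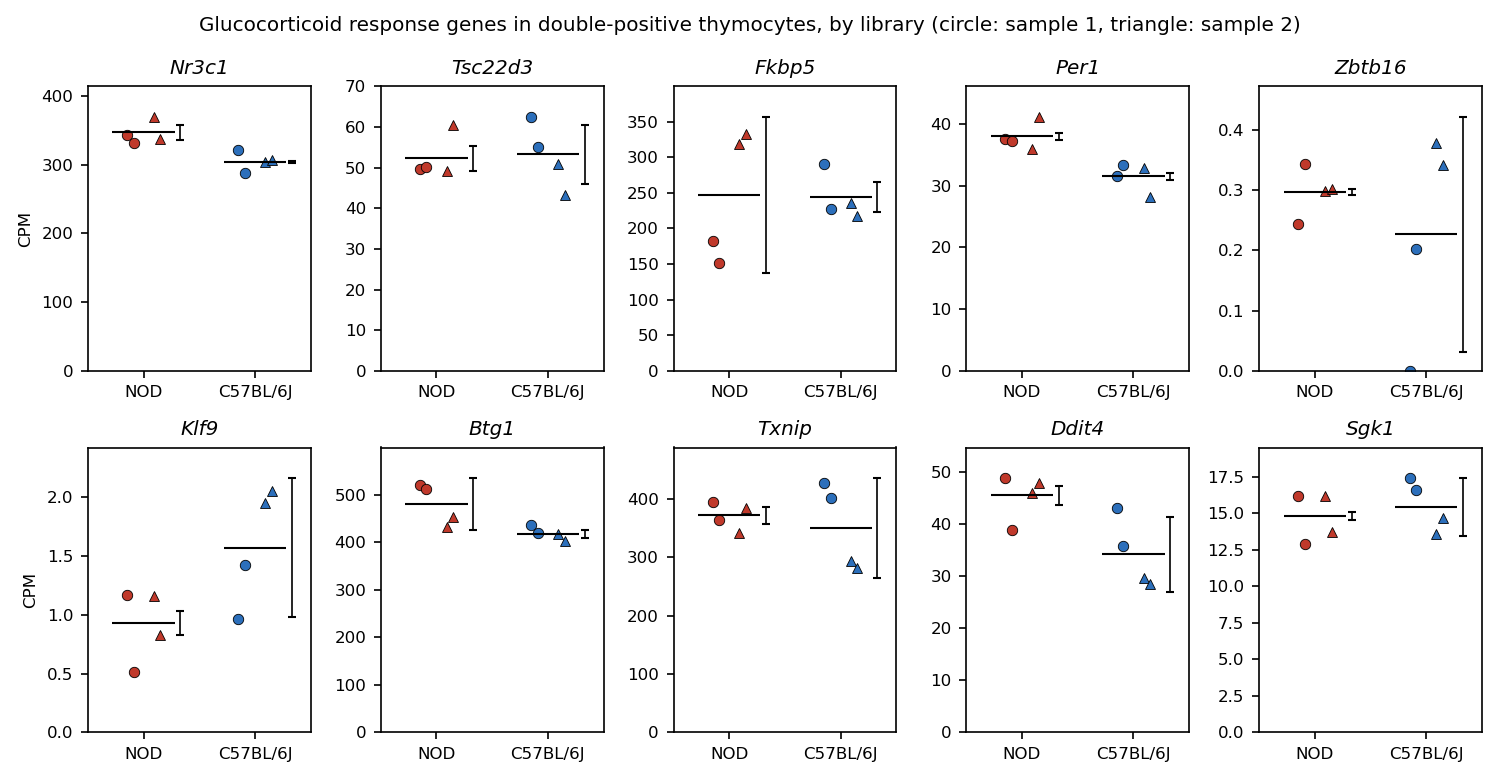
Level of each of the 10 genes in CPM (vertical axis, from 0) in the NOD libraries (left of each panel) and the C57BL/6J libraries (right). Circles are the libraries of sample 1 and triangles those of sample 2, the horizontal line is the mean of the 2 summed samples and the bar beside it their SD; Fkbp5 spans 152 to 332 CPM within NOD, and Per1 lies at 35.9 to 41.2 CPM in NOD above 28.2 to 33.3 CPM in C57BL/6J.

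Nr3c1 (ENSMUSG00000024431, chromosome 18) encodes the receptor itself. It stood at 343 and 331 CPM in the NOD sample 1 libraries and 370 and 338 CPM in those of NOD sample 2, against 322 and 288 CPM in the C57BL/6J sample 1 libraries and 304 and 307 CPM in those of sample 2. Every NOD library was above every C57BL/6J library, by a small margin. The summed samples averaged 347 ± 11.4 CPM in NOD and 304 ± 1.39 CPM in C57BL/6J (SD, n = 2 each). The log2 fold change was 0.19 ± 0.16 SE (edgeR adjusted p = 0.739). Its 95% interval ran from 0.893-fold to 1.46-fold, so differences within that range could not be told from none with these samples. The mineralocorticoid receptor gene Nr3c2, whose protein binds the same hormones and which was named after its values were seen, had 0 counts in NOD and 2 counts in C57BL/6J.

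By the Pearson correlation of log2(CPM + 1) over the 8 libraries, which share strain, sample and depth, the coding genes most like Nr3c1 among 11790 were B4galt1 (r = 0.985), Rasal2 (r = 0.963) and Relt (r = 0.956). A value of 0.9 or more was reached by 66 genes. B4galt1, a galactosyltransferase of the Golgi, ranged from 55.9 to 72.1 CPM in NOD and 44.0 to 54.5 CPM in C57BL/6J (edgeR adjusted p = 0.421). Rasal2 ranged from 1.25 to 1.85 CPM in NOD and 0.305 to 1.20 CPM in C57BL/6J, and Relt, a receptor of the tumour necrosis factor family, from 5.91 to 7.24 CPM in NOD and 4.37 to 5.60 CPM in C57BL/6J.

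Fkbp5 (ENSMUSG00000024222, chromosome 17, 28399094 to 28517527) encodes FKBP51, an HSP90 cochaperone that lowers the hormone affinity of the receptor and is itself induced by it. It stood at 183 and 152 CPM in the NOD sample 1 libraries and 319 and 332 CPM in those of NOD sample 2, against 291 and 227 CPM in the C57BL/6J sample 1 libraries and 236 and 218 CPM in those of sample 2. Both NOD sample 1 libraries lay below all C57BL/6J libraries and both NOD sample 2 libraries above them. NOD sample 2 had 1.92 times the level of NOD sample 1, and 3.76% of tested genes differed at least as much between these samples. The strain means were 247 ± 110 CPM in NOD and 244 ± 21.4 CPM in C57BL/6J (SD, n = 2 each), a log2 fold change of 0.02 ± 0.29 SE (edgeR adjusted p = 0.990). Without NOD sample 1 it was 0.41 (edgeR adjusted p = 0.548), and without NOD sample 2 it was -0.54 (edgeR adjusted p = 0.182). For all 8 proliferation markers too, the NOD sample 2 libraries both exceeded the NOD sample 1 libraries, and their part in the Fkbp5 difference was not tested. Fkbp5 was the only one of the 10 genes with this order, and the share of all tested genes with it is not given here.

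**Figure D2:**
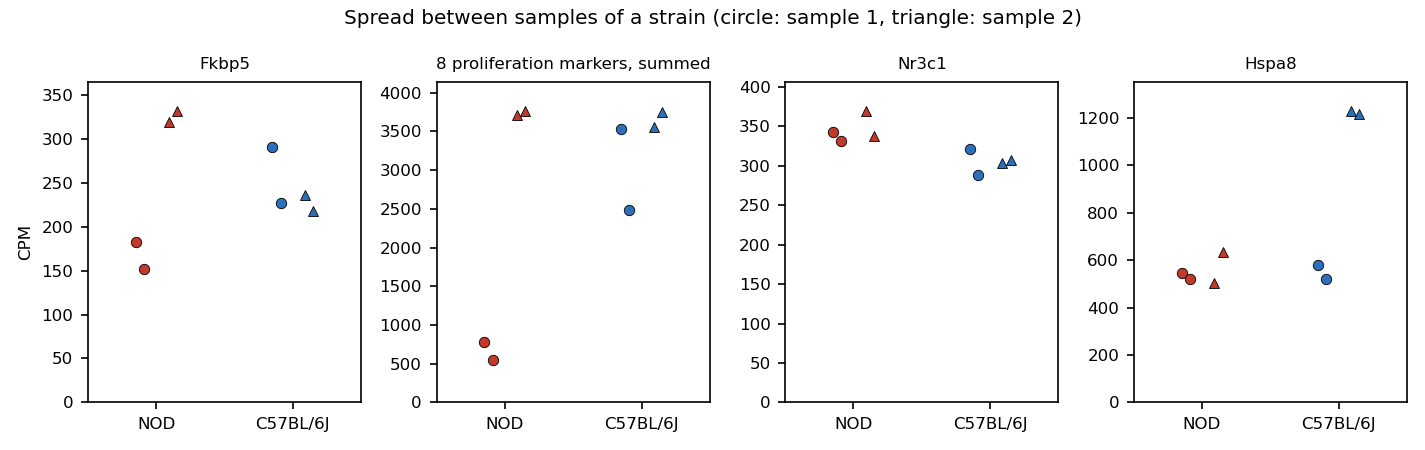
CPM per library (vertical axes, from 0) of Fkbp5, of the 8 proliferation markers summed, of Nr3c1 and of the chaperone gene Hspa8, with NOD at the left and C57BL/6J at the right of each panel; circles are sample 1 and triangles sample 2. Fkbp5 and the proliferation markers were low in NOD sample 1, at 152 to 183 CPM and 544 to 786 CPM, and Hspa8 was high in C57BL/6J sample 2, at 1218 to 1230 CPM.

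Tsc22d3 (ENSMUSG00000031431, chromosome X, 140539528 to 140600659) encodes GILZ, a leucine zipper protein that restrains NF-kappaB and AP-1. It stood at 49.6 and 50.2 CPM in the NOD sample 1 libraries and 49.2 and 60.5 CPM in those of NOD sample 2, against 62.6 and 55.1 CPM in the C57BL/6J sample 1 libraries and 50.9 and 43.4 CPM in those of sample 2. The NOD libraries lay within the range of the C57BL/6J libraries. The log2 fold change was -0.03 ± 0.18 SE (edgeR adjusted p = 0.974), with a 95% interval of 0.740-fold to 1.30-fold. Of the other relatives of this family, Tsc22d4 was the most abundant, at 381 ± 52.5 CPM in NOD and 405 ± 14.5 CPM in C57BL/6J (SD, n = 2 each; edgeR adjusted p = 0.905).

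Per1 (ENSMUSG00000020893, chromosome 11, 69095217 to 69109960) encodes a repressor of the circadian clock that glucocorticoids induce quickly. It stood at 37.5 and 37.3 CPM in the NOD sample 1 libraries and 35.9 and 41.2 CPM in those of NOD sample 2, against 31.5 and 33.3 CPM in the C57BL/6J sample 1 libraries and 32.8 and 28.2 CPM in those of sample 2. Every NOD library was above every C57BL/6J library. The means were 38.0 ± 0.559 CPM in NOD and 31.5 ± 0.508 CPM in C57BL/6J (SD, n = 2 each), a log2 fold change of 0.27 ± 0.18 SE (edgeR adjusted p = 0.641; 95% interval 0.911-fold to 1.60-fold). The spread between these samples was small for Per1, while the test also used the spread of other genes of like abundance.

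Klf9 and Zbtb16, transcription factor genes, were scarce. Klf9 (ENSMUSG00000033863, chromosome 19, 23141226 to 23168134), a Krüppel-like factor, stood at 1.17 and 0.515 CPM in the NOD sample 1 libraries and 1.16 and 0.831 CPM in those of NOD sample 2, against 0.961 and 1.42 CPM in the C57BL/6J sample 1 libraries and 1.95 and 2.05 CPM in those of sample 2. Of the 4 C57BL/6J libraries, 3 were above all NOD libraries and the other lay within the NOD range. Its log2 fold change was -0.75 ± 0.48 SE (edgeR adjusted p = 0.628), with a wide 95% interval of 0.281-fold to 1.26-fold. Zbtb16 (ENSMUSG00000066687, chromosome 9, 48654297 to 48836222) encodes PLZF, the factor that directs innate-like T cells. It had 14 and 17 counts in NOD samples 1 and 2, against 2 and 9 counts in C57BL/6J samples 1 and 2, and 1 C57BL/6J library held none. Per library this was 0.243 to 0.344 CPM in NOD and 0 to 0.378 CPM in C57BL/6J, and the log2 fold change was 0.36 ± 0.76 SE (edgeR adjusted p = 0.914). The 10 markers of innate-like T cells summed to 8.95 to 11.6 CPM in NOD libraries and 5.44 to 7.63 CPM in C57BL/6J libraries, and none of the 6 tested ones passed. Of the 10, 8 averaged under 1 CPM. All 6 tested ones had positive fold changes (median log2 fold change 0.63). For 3 of these 6 all NOD libraries lay above all C57BL/6J libraries, against 8.20% of all tested genes. The part of these markers in the Zbtb16 counts was not tested.

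Btg1, Txnip, Ddit4 and Sgk1 restrain growth or tune metabolism and ion transport. Btg1 (ENSMUSG00000036478, chromosome 10, 96617006 to 96622809) encodes an antiproliferative partner of the enzymes that shorten mRNA tails. It stood at 520 and 512 CPM in the NOD sample 1 libraries and 432 and 454 CPM in those of NOD sample 2, against 437 and 420 CPM in the C57BL/6J sample 1 libraries and 418 and 403 CPM in those of sample 2. Of the 4 NOD libraries, 3 were above all C57BL/6J libraries, and the log2 fold change was 0.20 ± 0.17 SE (edgeR adjusted p = 0.745). Its relative Btg2, of the same function, had 475 ± 69.1 CPM in NOD and 489 ± 13.4 CPM in C57BL/6J (SD, n = 2 each; edgeR adjusted p = 0.958).

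Txnip (ENSMUSG00000038393, chromosome 3, 96557957 to 96561883) encodes an arrestin-like protein that binds thioredoxin and limits glucose uptake. It stood at 394 and 363 CPM in the NOD sample 1 libraries and 341 and 385 CPM in those of NOD sample 2, against 427 and 402 CPM in the C57BL/6J sample 1 libraries and 294 and 282 CPM in those of sample 2. The C57BL/6J samples lay on both sides of the NOD libraries. The log2 fold change was 0.09 ± 0.20 SE (edgeR adjusted p = 0.922; 95% interval 0.780-fold to 1.45-fold). Txnip overlaps Gm15441, an antisense gene at 3.00 CPM in NOD and 3.75 CPM in C57BL/6J, and the sources used here do not say whether counting used the strand.

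Ddit4 (ENSMUSG00000020108, chromosome 10, 59949669 to 59951834) encodes REDD1, an inhibitor of the growth kinase complex mTORC1. It stood at 48.9 and 39.0 CPM in the NOD sample 1 libraries and 46.0 and 47.9 CPM in those of NOD sample 2, against 43.1 and 35.8 CPM in the C57BL/6J sample 1 libraries and 29.6 and 28.5 CPM in those of sample 2. Of the 4 NOD libraries, 3 were above all C57BL/6J libraries. The means were 45.6 ± 1.81 CPM in NOD and 34.2 ± 7.16 CPM in C57BL/6J (SD, n = 2 each). The log2 fold change of 0.41 ± 0.20 SE was the highest of the 10, with an unadjusted p of 0.0701 in edgeR (edgeR adjusted p = 0.453) and a 95% interval of 0.971-fold to 1.83-fold. Without C57BL/6J sample 1 it was 0.64 (edgeR adjusted p = 0.517), and without C57BL/6J sample 2 it was 0.21 (edgeR adjusted p = 0.830).

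Sgk1 (ENSMUSG00000019970, chromosome 10, 21882184 to 21999903), the gene with the full element printed above, encodes a kinase that acts on ion channels and FOXO factors. It stood at 16.2 and 12.9 CPM in the NOD sample 1 libraries and 16.2 and 13.7 CPM in those of NOD sample 2, against 17.4 and 16.6 CPM in the C57BL/6J sample 1 libraries and 13.6 and 14.7 CPM in those of sample 2. The ranges overlapped, and the log2 fold change was -0.05 ± 0.24 SE (edgeR adjusted p = 0.963; 95% interval 0.664-fold to 1.40-fold).

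**Figure D3:**
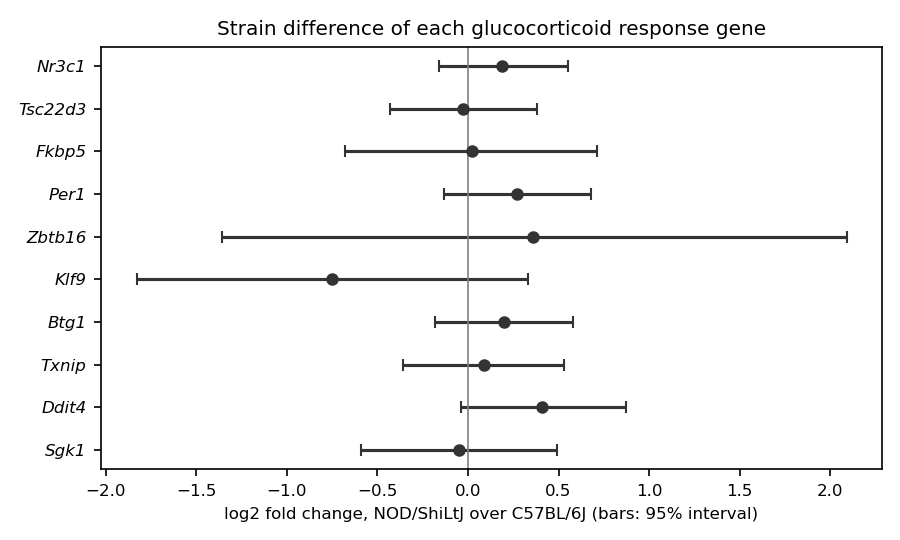
Log2 fold change of NOD over C57BL/6J (horizontal axis) for each of the 10 genes, with points for the estimates of edgeR and bars for their 95% intervals (n = 2 summed samples per strain). Every interval includes 0; those of Zbtb16 and Klf9, the scarcest genes, are the widest.

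Within C57BL/6J, 7 of the 9 targets stood lower in sample 2 than in sample 1. The ratio of sample 2 over sample 1 was 0.705 for Txnip, 0.742 for Ddit4, 0.823 for Tsc22d3, 0.833 for Sgk1, 0.883 for Fkbp5, 0.974 for Btg1 and 0.977 for Per1. Klf9, with a ratio of 1.73, and Zbtb16, with 4.13 from 11 counts, went the other way. Between the C57BL/6J samples, 15.8% of all tested genes differed at least as much as Txnip, in either direction, and 92.3% at least as much as Per1. The shares for the other targets lay in between. How many of all tested genes stood lower in C57BL/6J sample 2 is not given here. In NOD, Btg1 (0.852) and Txnip (0.947) were below 1, and the other targets lay between 1.02 for Per1 and Zbtb16 and 1.92 for Fkbp5. These are single pairs of samples, and no test was made of them.

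Per kilobase of exon, Txnip was the most abundant of the 10, with 119 ± 4.55 CPM per kb in NOD and 112 ± 27.4 CPM per kb in C57BL/6J (SD, n = 2 each). Btg1 followed with 91.1 ± 10.3 CPM per kb in NOD and 79.2 ± 1.48 CPM per kb in C57BL/6J, and Nr3c1 with 45.2 ± 1.48 and 39.5 ± 0.181 CPM per kb in NOD and C57BL/6J. Fkbp5 and Ddit4 came next, at 26.1 ± 11.7 and 26.0 ± 1.03 CPM per kb in NOD, and at 25.8 ± 2.26 and 19.5 ± 4.08 CPM per kb in C57BL/6J, and these neighbours did not differ beyond their spread in either strain. Tsc22d3 stood at 12.1 ± 0.706 CPM per kb in NOD and 12.3 ± 1.68 CPM per kb in C57BL/6J. Per1 stood at 6.75 CPM per kb in NOD and 5.59 CPM per kb in C57BL/6J, and Sgk1 at 3.03 CPM per kb in NOD and 3.14 CPM per kb in C57BL/6J. Klf9, at 0.194 CPM per kb in NOD and 0.325 CPM per kb in C57BL/6J, and Zbtb16, at 0.0562 and 0.0429 CPM per kb in NOD and C57BL/6J, came last. Apart from Fkbp5 and Ddit4, neighbours in this order were separated by more than their SDs in both strains.

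The chaperones that fold the receptor and hold it ready to bind hormone stood lower in NOD for 13 of 14 tested genes, but none passed the test. Of all 17291 tested genes, 8248 had negative fold changes. The chaperones' median log2 fold change was -0.34, against 0.02 for all tested genes. An unadjusted p under 0.05 in edgeR was reached by 2 of the 14, against 13.1% of all tested genes. Libraries did not overlap for 2 of the 14, with NOD below in both, against 17.0% of all tested genes (8.84% with NOD below). Hsp90ab1, the constitutive HSP90 itself, stood at 1001 and 770 CPM in the NOD sample 1 libraries and 1133 and 1336 CPM in those of NOD sample 2, against 1750 and 1448 CPM in the C57BL/6J sample 1 libraries and 1789 and 1753 CPM in those of sample 2. Every NOD library was below every C57BL/6J library, with a log2 fold change of -0.67 ± 0.20 SE (edgeR adjusted p = 0.141; DESeq2 adjusted p = 0.118). Hsp90ab1 passed in edgeR without a filter (adjusted p = 0.00241) and with the 8 libraries as separate samples (adjusted p = 0.0159). Without NOD sample 2 it passed (edgeR adjusted p = 0.0141), and without NOD sample 1, C57BL/6J sample 1 or C57BL/6J sample 2 it did not (edgeR adjusted p = 0.610, 0.314 and 0.395). Dnajb1, an HSP40 named after its values were seen, was the other chaperone whose libraries did not overlap, with 81.0 ± 5.97 CPM in NOD and 118 ± 7.33 CPM in C57BL/6J (SD, n = 2 each; edgeR adjusted p = 0.130). The inducible Hsp90aa1 stood at 300 ± 83.1 CPM in NOD and 416 ± 105 CPM in C57BL/6J (SD, n = 2 each; edgeR adjusted p = 0.494). Its log2 fold change of -0.47 was -0.21 without NOD sample 1 (edgeR adjusted p = 0.992), -0.79 without NOD sample 2 (edgeR adjusted p = 0.0226), -0.71 without C57BL/6J sample 1 (edgeR adjusted p = 0.476) and -0.19 without C57BL/6J sample 2 (edgeR adjusted p = 0.865). Hspa8, the constitutive HSP70, stood at 505 to 636 CPM in NOD libraries, 521 to 580 CPM in the C57BL/6J sample 1 libraries and 1218 to 1230 CPM in those of C57BL/6J sample 2 (edgeR adjusted p = 0.574). Its log2 fold change was -0.68, -1.15 without C57BL/6J sample 1 (edgeR adjusted p = 0.0248) and 0.01 without C57BL/6J sample 2, so that value rested on 1 sample. For 9 of the 14 chaperones the NOD sample 2 libraries both exceeded the NOD sample 1 libraries. This order also held for 6 of the 12 immediate early genes, all 8 proliferation markers and 0 of the 10 double-positive markers. How many of all tested genes had it is not given here, and the part of the proliferation markers was not tested.

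**Figure D4:**
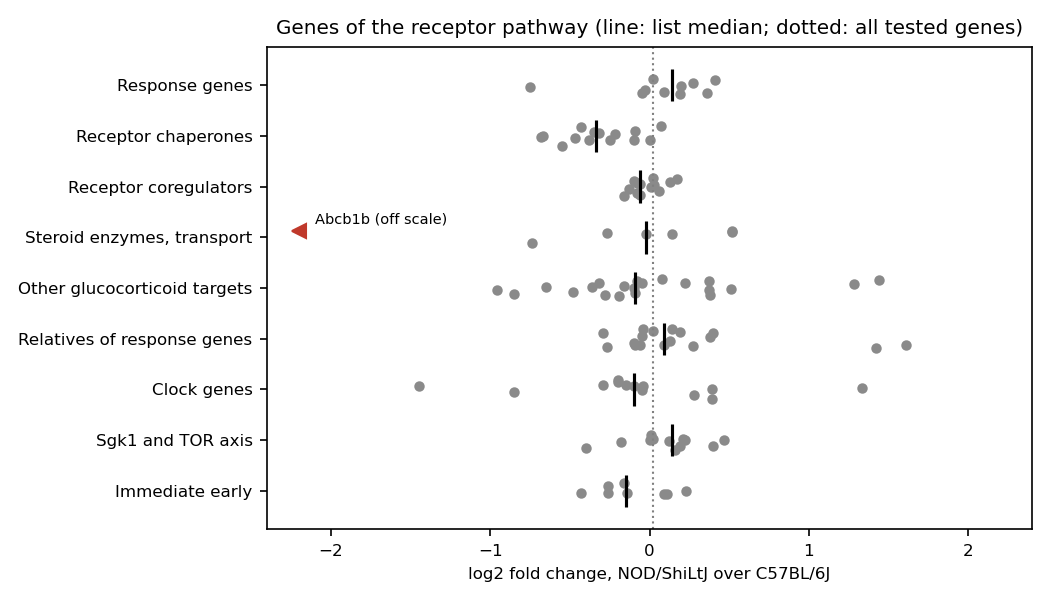
Log2 fold change of NOD over C57BL/6J (horizontal axis) for each tested gene of the 10 and of 8 companion lists (rows). Grey points did not pass the test, the red triangle (Abcb1b, off scale at the left) did, the black line is the list's median and the dotted line that of all tested genes at 0.02; the chaperones' median is -0.34.

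None of the 13 tested coactivators and corepressors of the receptor passed, and their log2 fold changes lay between -0.16 and 0.17 (median -0.06). The corepressor Ncor1 stood at 914 ± 30.0 CPM in NOD and 981 ± 139 CPM in C57BL/6J (SD, n = 2 each; edgeR adjusted p = 0.896). The chromatin remodeller subunits Smarca4 and Arid1a stood at 959 ± 119 and 989 ± 96.9 CPM in NOD and at 1013 ± 105 and 1029 ± 119 CPM in C57BL/6J.

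Of the 16 genes of steroid synthesis, conversion and export, 7 could be tested and 1 passed, lower in NOD. Abcb1b (ENSMUSG00000028970, chromosome 5, 8798147 to 8866315) encodes a P-glycoprotein, an efflux pump that can carry steroids out of cells. It had 0 counts in all 4 NOD libraries, against 1.68 and 0.915 CPM in the C57BL/6J sample 1 libraries and 1.57 and 1.71 CPM in those of sample 2, 70 counts in all. With a floor of 3 counts over the NOD libraries (0.0287 CPM), it was at least 51.5-fold lower in NOD (edgeR adjusted p = 0.00279, lower in 4 of 4 libraries). Leaving out a sample gave edgeR adjusted p-values of 1.2e-06 to 0.0188. Its close copy Abcb1a, named after its values were seen, had 13 counts in NOD and 5 counts in C57BL/6J. Scaled for depth, this was a mean of 0.121 CPM in NOD and 0.105 CPM in C57BL/6J. How reads shared by the copies were counted was not tested. Hsd11b1, which regenerates active hormone inside cells, stood at 55.3 and 65.5 CPM in the NOD sample 1 libraries and 45.1 and 37.7 CPM in those of NOD sample 2, against 30.2 and 33.2 CPM in the C57BL/6J sample 1 libraries and 38.6 and 42.9 CPM in those of sample 2. Its log2 fold change was 0.52 ± 0.23 SE (edgeR adjusted p = 0.378). It was 0.23 without NOD sample 1 (edgeR adjusted p = 0.986), 0.76 without NOD sample 2 (edgeR adjusted p = 0.0237), 0.34 without C57BL/6J sample 1 (edgeR adjusted p = 0.940) and 0.70 without C57BL/6J sample 2 (edgeR adjusted p = 0.374). H6pd, which supplies the cofactor of that enzyme, stood at 104 ± 5.16 CPM in NOD and 93.9 ± 1.25 CPM in C57BL/6J, and the mitochondrial protein gene Tspo at 26.0 ± 1.91 CPM in NOD and 31.4 ± 12.5 CPM in C57BL/6J (SD, n = 2 each). The enzyme genes of hormone synthesis given next were named after their values were seen. Cyp11a1, whose enzyme takes the first step from cholesterol, had 127 counts in NOD and 97 counts in C57BL/6J, or 1.22 ± 0.0811 CPM in NOD and 2.03 ± 0.624 CPM in C57BL/6J (SD, n = 2 each; edgeR adjusted p = 0.596). Cyp17a1, Cyp21a1, Cyp11b1, Cyp11b2, Hsd3b1 and Hsd3b6, of the later steps, had 0 to 5 counts each in NOD and 0 to 1 count each in C57BL/6J.

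Of 24 further genes known to respond to glucocorticoids, 21 were tested and none passed, with 8 positive and 13 negative fold changes and a median of -0.09. Nfkbia, the inhibitor of NF-kappaB, stood at 150 ± 2.26 CPM in NOD and 129 ± 23.1 CPM in C57BL/6J (SD, n = 2 each; edgeR adjusted p = 0.740). The chemokine receptor gene Cxcr4 stood at 190 ± 10.4 CPM in NOD and 218 ± 35.2 CPM in C57BL/6J, and the transcription factor gene Foxo3 at 188 ± 1.15 CPM in NOD and 195 ± 5.58 CPM in C57BL/6J (SD, n = 2 each). The libraries did not overlap for 5 of the 21, with NOD above for 3 and below for 2, against 17.0%, 8.20% and 8.84% of all tested genes. The genes described next in this paragraph were named after their values were seen. The 3 with NOD above were Il7r, Gpr65 and Per2, and the 2 with NOD below were Irs2 and Foxo1. Irs2 stood at 24.6 to 26.9 CPM in NOD libraries and 33.4 to 38.5 CPM in C57BL/6J libraries (edgeR adjusted p = 0.278). Foxo1 stood at 45.1 to 51.9 CPM in NOD libraries and 59.0 to 64.5 CPM in C57BL/6J libraries (edgeR adjusted p = 0.494). Bcl2l11 (BIM), the pro-death gene that glucocorticoids raise in thymocytes, stood at 81.9 to 117 CPM in NOD libraries and 67.8 to 83.9 CPM in C57BL/6J libraries (edgeR adjusted p = 0.464). Il7r, the interleukin 7 receptor chain, stood at 17.4 and 17.2 CPM in the NOD sample 1 libraries and 9.19 and 6.91 CPM in those of NOD sample 2, against 2.72 and 3.97 CPM in the C57BL/6J sample 1 libraries and 6.30 and 5.93 CPM in those of sample 2. All NOD libraries lay above all C57BL/6J libraries, most clearly those of NOD sample 1. The log2 fold change was 1.44 ± 0.45 SE (edgeR adjusted p = 0.168), and it passed with DESeq2 (DESeq2 adjusted p = 0.0289) and, at 1.88, without NOD sample 2 (edgeR adjusted p = 0.000206). It was 0.79 without NOD sample 1 (edgeR adjusted p = 0.645), 1.04 without C57BL/6J sample 1 (edgeR adjusted p = 0.738) and 1.97 without C57BL/6J sample 2 (edgeR adjusted p = 0.179). Il7r is also known from mature single-positive cells, whose 10 markers summed to 312 to 351 CPM in NOD sample 1, 254 to 284 CPM in NOD sample 2 and 291 to 345 CPM in C57BL/6J libraries, and their part was not tested. Of these 10 markers, 6 had positive and 4 negative log2 fold changes, from -0.62 to 1.61 (median 0.11), and none passed in edgeR. Libraries did not overlap for 3 of them, with NOD above for 2 and below for 1, against 17.0%, 8.20% and 8.84% of all tested genes.

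Per2, the partner of Per1 in the clock, was likewise named after its values were seen. It stood at 5.51 and 4.29 CPM in the NOD sample 1 libraries and 5.78 and 3.67 CPM in those of NOD sample 2, against 1.60 and 2.24 CPM in the C57BL/6J sample 1 libraries and 2.52 and 1.48 CPM in those of sample 2. All NOD libraries lay above all C57BL/6J libraries, with a log2 fold change of 1.28 ± 0.37 SE. It did not pass in edgeR (edgeR adjusted p = 0.119). It passed with DESeq2 (DESeq2 adjusted p = 0.0243) and with the 8 libraries as separate samples (edgeR adjusted p = 0.0110). Leaving out a sample gave edgeR adjusted p-values of 0.155 to 0.552. None of the 13 other clock genes passed (median -0.10, with 4 positive and 9 negative). The activator gene Arntl stood at 160 ± 16.6 CPM in NOD and 184 ± 35.2 CPM in C57BL/6J, and the kinase gene Csnk1e at 115 ± 2.22 CPM in NOD and 118 ± 7.30 CPM in C57BL/6J (SD, n = 2 each). Csnk1d, a like kinase, lay at 105 to 122 CPM in NOD libraries and 116 to 130 CPM in C57BL/6J libraries. The sources used here do not give the hour at which thymi were taken.

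Among relatives of the 10 genes, none of 17 tested passed in edgeR (median 0.09, with 10 positive and 7 negative). Klf13, the most abundant, stood at 667 ± 9.82 CPM in NOD and 688 ± 29.3 CPM in C57BL/6J (SD, n = 2 each; edgeR adjusted p = 0.951). Zbtb7b, also a mature single-positive marker, was named after its values were seen. It stood at 2.78 to 3.77 CPM in NOD libraries and 0.102 to 1.70 CPM in C57BL/6J libraries. Its log2 fold change was 1.61 ± 0.48 SE (edgeR adjusted p = 0.137; DESeq2 adjusted p = 0.0457). Zbtb7b also passed in edgeR without a filter and with the 8 libraries as separate samples. Arrdc4, the arrestin-like relative of Txnip that also limits glucose uptake, was named after its values were seen. It stood at 7.98 and 10.0 CPM in the NOD sample 1 libraries and 5.69 and 8.35 CPM in those of NOD sample 2, against 4.72 and 2.64 CPM in the C57BL/6J sample 1 libraries and 2.46 and 1.83 CPM in those of sample 2. The groups did not overlap, and the log2 fold change was 1.42 ± 0.38 SE (edgeR adjusted p = 0.0912; DESeq2 adjusted p = 0.00884). The edgeR adjusted p was 0.0223 without NOD sample 2, 0.248 without NOD sample 1, 0.155 when C57BL/6J sample 1 was left out and 0.367 when C57BL/6J sample 2 was.

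Of 12 genes that act on or beside Sgk1 and mTORC1, none passed (median 0.14, with 9 positive and 3 negative). Pdpk1, the kinase that activates Sgk1, stood at 319 and 309 CPM in the NOD sample 1 libraries and 331 and 291 CPM in those of NOD sample 2, against 232 and 211 CPM in the C57BL/6J sample 1 libraries and 229 and 240 CPM in those of sample 2. Its libraries did not overlap, with a log2 fold change of 0.47 ± 0.16 SE (edgeR adjusted p = 0.186; 0.00442 with the 8 libraries as separate samples and 0.248 to 0.681 on leaving out a sample). Rictor and Mtor, of the kinase complex that primes Sgk1, stood at 318 ± 41.2 and 136 ± 1.14 CPM in NOD and at 314 ± 69.1 and 124 ± 19.6 CPM in C57BL/6J (SD, n = 2 each). Of the immediate early genes, which handling of cells can induce, none of 8 tested passed (median -0.15). Jund stood at 193 ± 29.4 CPM in NOD and 231 ± 58.1 CPM in C57BL/6J, Egr1 at 130 ± 25.3 CPM in NOD and 122 ± 1.21 CPM in C57BL/6J, and Nr4a1 at 52.9 ± 4.04 CPM in NOD and 45.1 ± 2.64 CPM in C57BL/6J (SD, n = 2 each). Over the 104 distinct genes tested in the 8 lists, 1 was called in edgeR and 5 in DESeq2, against 3.68% and 5.42% of all tested genes. Libraries did not overlap for 18 of the 104, against 17.0% of all tested genes.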

How the data were processed

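RNA of sorted double-positive thymocytes was sequenced in 8 libraries, 4 per strain. The authors deposited raw counts, whole numbers of reads per Ensembl gene and library with no scaling. The submitters' processing notes name STAR 2.5.0a, HTSeq 0.6.1 and the build GRCm38, and the labels' protocols name a stranded library kit for small amounts of total RNA. For the annotation release, the strand setting of the counting and any read filters, the entry is "not given in the sources used here". Reads assigned to no gene in the counting made up 39.98% to 59.08% of those listed and were left out, as were ambiguous reads (0.694% to 2.379%). Of 53465 identifiers, 53360 had a GENCODE M21 symbol.

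Libraries sharing strain and B number were summed (8526640 to 30370599 reads in genes per library before summing). Genes kept by filterByExpr were scaled by TMM and tested with edgeR 4.0.16 (robust quasi-likelihood F-test, two-sided, strain as the only term) in R 4.3.3, with Benjamini-Hochberg adjustment over all 17291 genes, and with DESeq2 1.42.0 as an alternative. CPM uses TMM library sizes; CPM per kb divides by the union of exons. Intervals are 95% and rest on the spread between samples, of each gene and of others of like abundance. The floor of 3 counts covers counting error only. The 10 genes and all lists were chosen with earlier results of these data known. Within the companion lists, genes that passed and the 3 most abundant were named, and any other is marked in the text as named after its values were seen. Alternatives covered scaling, filters, DESeq2, unsummed libraries, a replicate block, coding genes only, equal depth and leaving out each sample.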

Additional observations from a re-analysis of the deposited data

Results flagged for a closer look

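The highest NOD library of Tsc22d3, a library of NOD sample 2, stood at 60.5 CPM, while the other 3 NOD libraries lay between 49.2 and 50.2 CPM, a gap that passed Dixon's 95% value for a group of 4. Of 20 groups of 4 libraries examined (10 genes in 2 strains), this was the only one past that value; chance passes about 1 in 20, and libraries that share a B number are not independent.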

How the results depend on the processing

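None of the 10 genes passed under any of the 14 alternatives in which each was tested (134 values, lowest adjusted p 0.109, for Ddit4 with the 8 libraries as separate samples), and 9 values changed sign. With the replicate block, Fkbp5 was -0.06, and the same with crossed pairs of numbers. Samples that share a B number deviated with a correlation of -0.114 between the strains, so the numbers were not taken as pairs; the block called 513 genes and the crossed block, added after seeing the data, 768. Leaving out each sample gave ranges of -0.17 to 0.12 for Tsc22d3, -0.54 to 0.41 for Fkbp5, -0.30 to 1.71 for Zbtb16 (2 fits), -0.15 to 0.36 for Txnip, -0.19 to 0.08 for Sgk1, -1.09 to -0.31 for Klf9 (lowest without C57BL/6J sample 1, highest without C57BL/6J sample 2) and 0.08 to 0.31 for Btg1 (lowest without NOD sample 1, highest without NOD sample 2). With 1 sample left in a strain, that sample was assumed to vary like the others.

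Over all genes, 637 calls became 1188 without a filter (35135 genes tested), 254 with the stricter filter (10277 tested), 1535 with 8 libraries as separate samples, and 256 (without C57BL/6J sample 1) to 1389 (without NOD sample 2) on leaving out a sample, with 359 without C57BL/6J sample 2. Over the companion lists, 1 call became 5 with DESeq2, 6 without a filter, 0 with the stricter filter (which dropped Abcb1b), 11 with 8 libraries, 2 with coding genes only, 2 with the crossed block and 1 to 6 (6 without NOD sample 2, 2 without NOD sample 1 or C57BL/6J sample 1) on leaving out a sample. Apart from the filters, the cause was not tested. Abcb1b passed under the other 13 alternatives. Ranges on leaving out a sample that crossed 0 were -1.15 to 0.01 for Hspa8, -0.24 to 0.04 for Ncor1, -0.22 to 0.04 for Smarca4, -0.18 to 0.06 for Arid1a, -0.64 to 0.20 for Tspo, -0.25 to 0.04 for Tsc22d4, -0.20 to 0.10 for Btg2, -0.11 to 0.02 for Csnk1e, -0.20 to 0.25 for Rictor, -0.03 to 0.29 for Mtor, -0.50 to 0.02 for Jund and -0.12 to 0.27 for Egr1. Rictor was -0.01 with 8 libraries. Zbtb16, with 31 counts in NOD and 11 in C57BL/6J, and Klf9, with 98 in NOD and 75 in C57BL/6J, were not tested under the stricter filter. At equal depth Klf9 was -0.90.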
